A study of Mus musculus with 32 samples.

Results

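The respiratory chain of mouse islets is built from 2 genomes, and its transcripts were followed as 13 mitochondrially encoded and 81 nuclear encoded members. These 94 gene symbols (97 entries) were taken from the 36595 genes of the count table by symbol. The choice took the mt-Nd, mt-Co, mt-Cytb and mt-Atp genes and the nuclear Nduf, Sdh, Uqcr, Cox and Atp5 families, without names that end in -ps, and required at least 10 counts in at least 8 of 32 libraries. Of 103 matching entries, 6 were not kept (Cox8b, Cox8c, Cox7b2, Ndufa11b, Ndufs6b and a second Atp5o entry), each with between 4 and 46 counts over all libraries. Atp5a1, Ndufs3 and Uqcrc1 each had a pair of entries with identical counts in every library, were counted once, and have levels summed over the pair. Complexes were assigned by symbol family alone, which places Ndufa4 and Ndufa4l2 under complex I here and in the figures. The nuclear encoded members comprised 38 of complex I, 4 of complex II, 8 of complex III, 14 of complex IV and 17 of complex V. The mitochondrially encoded members comprised 7 of complex I, 1 of complex III, 3 of complex IV, 2 of complex V and 0 of complex II. Not every nuclear member is a standing subunit: Ndufa4l2 is a paralog of Ndufa4, Cox7a2l (also called SCAF1) helps to join complexes III and IV, and Atp5s is a coupling factor. The annotation lists Ndufb4c and Cox6c2 as processed pseudogenes. Ndufb4c shares 360 of its 360 stretches of 31 bases with Ndufb4, and Cox6c2 shares 124 of 201 with Cox6c, so how counts were split within these pairs is uncertain. The symbol patterns passed over some true subunits, such as Cox4i1, which are described with the related genes at the end.

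RNA was sequenced from islets of 4 groups: hIAPP and then mIAPP islets that had been cultured at 16.7 mM glucose, and hIAPP and then mIAPP islets cultured at 11.1 mM, with 8 libraries per group. All mice were 10-week-old males and females of the C57BL/6NHsd background. In hIAPP mice human IAPP had replaced the mouse Iapp locus by homologous recombination, and mIAPP mice were their wild-type littermates. All islets recovered overnight at 11.1 mM glucose and were then cultured for 48 h at either concentration. Each of 8 experiment sets held 1 library of each group, and the set number pairs the libraries. The number of animals behind a set is not stated, so libraries and not animals are the units of the p-values. These rest on the spread of libraries left after group and set differences are removed, estimated over all 4 groups together. Human but not mouse IAPP can form islet amyloid, and the design asks what genotype and glucose each do to islet RNA.

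The respiratory chain passes electrons from NADH and succinate to oxygen through complexes I to IV and pumps protons that drive ATP synthesis by complex V. In beta cells the ATP made from glucose carbon closes potassium channels and so starts insulin release. Mitochondrial DNA encodes only a few core membrane subunits of complexes I, III, IV and V, and it is transcribed inside the organelle from long polycistronic precursors by its own polymerase, Polrmt. Complex II and all remaining subunits are transcribed in the nucleus, translated in the cytosol and imported, so an assembled complex draws on both genomes.

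Total counts ran from 24.7 to 43.7 M per library in hIAPP and from 24.5 to 37.1 M in mIAPP islets at 16.7 mM, and from 18.8 to 34.8 M in hIAPP and from 16.1 to 29.1 M in mIAPP islets at 11.1 mM. Iapp, the replaced gene, was lower in the hIAPP library of all 8 sets, at 16.7 as at 11.1 mM, without overlap of the groups. It was not absent, with medians of 11090 CPM in hIAPP and 24438 CPM in mIAPP islets at 16.7 mM, and of 6678 CPM in hIAPP and 11685 CPM in mIAPP islets at 11.1 mM. Whether human IAPP reads were counted under Iapp was not tested, and the number of hIAPP alleles is not stated. All 8 beta cell markers, Iapp among them, were present in every group, and their summed level had medians of 176570, 219460, 221770 and 201080 CPM in hIAPP and mIAPP islets at 16.7 mM and in hIAPP and mIAPP islets at 11.1 mM. These sums include the genotype difference in Iapp. Levels are TMM-scaled CPM (counts relative to library size), so they compare libraries but not absolute amounts per cell. In bulk islets, fewer cells of a type and less RNA per cell cannot be told apart. The mIAPP library of set 7 at 16.7 mM stood apart from the rest of its group in many members, and results that rest on it are given with and without it.

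The summed level of the mitochondrially encoded transcripts differed widely between the groups, and that of the nuclear encoded transcripts little. The mitochondrial sum was lowest in hIAPP islets at 16.7 mM, at 23413, 31553 and 64100 CPM (lowest, median and highest of 8 libraries). In mIAPP islets at 16.7 mM it was 25685, 68979 and 605410 CPM, where the highest value is the set 7 library and the next was 142880 CPM. At 11.1 mM it was 42267, 185550 and 335850 CPM in hIAPP islets and 32334, 198380 and 533410 CPM in mIAPP islets. The hIAPP islets at 16.7 mM thus held the narrowest and lowest range, and it overlapped each other group only through the low libraries of those groups. Set 4 gave the lowest or next-lowest library in every group, and set 7 the highest or next-highest. The summed level of the 81 nuclear encoded members had medians of 7354.1 CPM in hIAPP and 7319.2 CPM in mIAPP islets at 16.7 mM, and of 7379.5 CPM in hIAPP and 7020.2 CPM in mIAPP islets at 11.1 mM, with overlapping ranges.

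**Figure D1:**
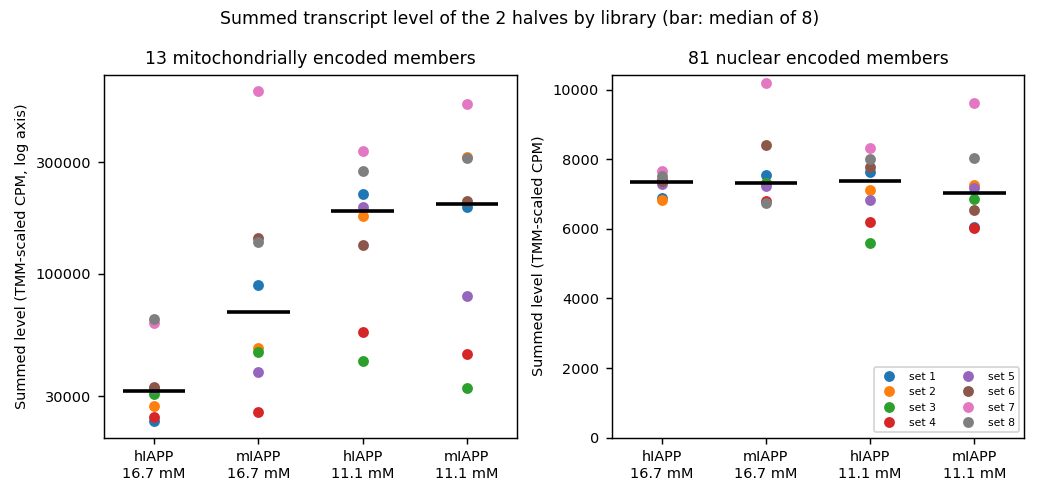
Summed level of the 13 mitochondrially encoded members (left, TMM-scaled CPM on a log axis) and of the 81 nuclear encoded members (right, TMM-scaled CPM from 0) in each of 32 libraries, coloured by set, with bars at the median of 8 libraries. The mitochondrial medians are 31553 CPM in hIAPP and 68979 CPM in mIAPP islets at 16.7 mM and 185550 CPM in hIAPP and 198380 CPM in mIAPP islets at 11.1 mM, while the nuclear medians lie between 7020.2 and 7379.5 CPM.

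As a share of all counts the mitochondrially encoded members took 3.498% (median, range 2.68 to 6.76%) in hIAPP and 7.29% (2.84 to 37.0%) in mIAPP islets at 16.7 mM. At 11.1 mM they took 18.1% (5.23 to 27.2%) in hIAPP and 20.4% (3.49 to 34.7%) in mIAPP islets. The nuclear encoded members took 0.806 ± 0.0227% of hIAPP and 0.746 ± 0.0656% of mIAPP counts at 16.7 mM, and 0.703 ± 0.0356% of hIAPP and 0.669 ± 0.0384% of mIAPP counts at 11.1 mM (SD, n = 8 each). These shares add to a fixed total, so a smaller mitochondrial share raises every other share.

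The ratio of mitochondrially to nuclear encoded counts does not depend on library scaling. It had a median of 4.31 (3.31 to 8.53) in hIAPP and 9.24 (3.77 to 59.3) in mIAPP islets at 16.7 mM, and of 26.6 (7.56 to 40.4) in hIAPP and 31.5 (4.71 to 55.5) in mIAPP islets at 11.1 mM. Within sets at 16.7 mM, the ratio in hIAPP islets was 0.435 times that in mIAPP islets (geometric mean over 8 sets, range 0.136 to 0.878) and was lower in all 8 sets. At 11.1 mM the same quotient was 0.987 (0.547 to 2.54), with the hIAPP library lower in 5 sets and higher in 3. In hIAPP islets the ratio at 16.7 mM was 0.230 times that at 11.1 mM (0.118 to 0.552), lower in all 8 sets. In mIAPP islets it was 0.521 times (0.152 to 1.34), lower in 6 sets and higher in sets 3 and 7. Leaving out Ndufa4l2, Cox7a2l and Atp5s gave quotients of 0.434, 0.991, 0.222 and 0.508 in the same order.

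Between genotypes at 16.7 mM glucose, the mitochondrially encoded transcripts were lower in hIAPP islets across all the complexes they serve. Of the 13, 12 passed an adjusted p of 0.05 as lower and 0 as higher, with a median log2 fold change of -1.28 (range -1.70 to -1.18). Over all genes tested the median was -0.01, and 11.2% of 16428 genes were called lower and 9.27% higher. In 9 of the 13 the hIAPP library was below its mIAPP partner in all 8 sets, and in the other 4 in 7 sets.

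mt-Nd4l (ENSMUSG00000065947), which encodes the smallest core subunit of the complex I membrane arm, stood at 264.78, 365.56 and 741.78 CPM in hIAPP islets at 16.7 mM, against 335.01, 859.57 and 7142.7 CPM in mIAPP islets (lowest, median and highest). The hIAPP values were below the mIAPP values in every set, although the ranges overlapped. Its log2 fold change was -1.33 ± 0.34 (SE, adjusted p = 0.00775). The core complex I subunits mt-Nd1, mt-Nd2, mt-Nd4, mt-Nd5 and mt-Nd6 had log2 fold changes of -1.28 to -1.38 with adjusted p of 0.0092 to 0.0172. mt-Nd6 is the only member that the annotation places on the minus strand of mitochondrial DNA. Its change of -1.34 ± 0.38 lay within the range of the plus-strand members. The strand setting of the counting is not given, and whether plus-strand reads were counted under mt-Nd6 was not tested. mt-Cytb, the only mitochondrially encoded subunit of complex III, stood at 3144.7, 4236.8 and 8463.2 CPM in hIAPP and 3444.2, 8802.2 and 74147 CPM in mIAPP islets, a log2 fold change of -1.22 ± 0.33 (adjusted p = 0.0115).

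mt-Co1, the catalytic core of cytochrome c oxidase, stood at 6914.8, 8611.6 and 19258 CPM in hIAPP islets at 16.7 mM and at 7246.2, 18597 and 158710 CPM in mIAPP islets. Its log2 fold change was -1.18 ± 0.34 (adjusted p = 0.0176), with the hIAPP library lower in 7 of 8 sets. The remaining complex IV core subunits, mt-Co2 and mt-Co3, fell by 1.27 ± 0.41 and 1.20 ± 0.33 on the log2 scale (adjusted p = 0.0326 and 0.0131). mt-Atp6, the proton channel subunit of ATP synthase, fell by 1.38 ± 0.41 and mt-Atp8 by 1.25 ± 0.40 (adjusted p = 0.0208 and 0.0306). mt-Nd3, a further complex I subunit, had 194594 counts over all libraries, against 722472 assigned to its chromosome 1 copy. It had the widest error, with a log2 fold change of -1.70 ± 0.69 (adjusted p = 0.0818), and was not called.

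These calls rested on few sets. Without set 1 the count of lower members was 6, without set 6 it was 3 and without set 7 it was 1, while without the set 7 mIAPP library alone it was 8. mt-Nd4l was the only member called in every such fit. The size of the change depended on the pairing too. Without the replicate block that pairs libraries by set, 13 members were called lower and the median log2 fold change was -1.97, against -1.28 with it.

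At 11.1 mM glucose no genotype difference was detected in the mitochondrially encoded members. edgeR called 0 of 13 in either direction, where it called 0.128% of all genes (0.11% higher and 0.0183% lower), and 0 had an unadjusted p below 0.05 (DESeq2 also called 0). Their log2 fold changes lay between -0.14 and 0.14 with a median of -0.05, and adjusted p was 0.935 or higher. mt-Co1 stood at 11262, 49221 and 84176 CPM in hIAPP islets and at 9052.2, 50737 and 136540 CPM in mIAPP islets, with the hIAPP library lower in 4 sets and higher in 4. The standard errors of 0.32 to 0.67 mean that a moderate difference could have gone undetected.

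In hIAPP islets, all 13 mitochondrially encoded transcripts were lower at 16.7 than at 11.1 mM glucose. The median log2 fold change was -2.07 (range -2.82 to -1.90), against -0.02 over all genes, of which 33.3% were called lower and 32.2% higher. Each of the 13 was lower at 16.7 mM in all 8 sets, and all 13 were called under every alternative tried. mt-Co3 fell by 2.07 ± 0.34 (adjusted p = 9.51e-06) and mt-Cytb by 1.99 ± 0.33 (adjusted p = 1.47e-05). mt-Cytb levels at 16.7 mM were 3144.7, 4236.8 and 8463.2 CPM, against 5619.1, 24074 and 41930 CPM at 11.1 mM. Only the low libraries of the 11.1 mM group, from sets 3 and 4, reached down to the 16.7 mM range. mt-Nd4l fell by 1.94 ± 0.34 (adjusted p = 2.83e-05), mt-Atp6 by 2.29 ± 0.42 (adjusted p = 4.99e-05) and mt-Nd3 by 2.82 ± 0.71 (adjusted p = 0.00149).

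In mIAPP islets the same glucose step gave smaller log2 fold changes with wider disagreement between sets. Of the 13 members 3 were called lower and 0 higher, where 22.7% of all genes were called lower and 24.9% higher, and 9 had an unadjusted p below 0.05. Those called were mt-Co3 (-0.94 ± 0.33, adjusted p = 0.0202), mt-Cytb (-0.85 ± 0.32, adjusted p = 0.0338) and mt-Nd5 (-0.82 ± 0.33, adjusted p = 0.0423). The median log2 fold change was -0.82 (range -0.97 to -0.65), and 10 of the 13 were not called. mt-Cytb stood at 3444.2, 8802.2 and 74147 CPM at 16.7 mM and at 5354.9, 24915 and 67017 CPM at 11.1 mM, lower at 16.7 mM in 6 of 8 sets. With the set 7 mIAPP library at 16.7 mM left out, 12 of the 13 were called lower, and without set 3 11 were. Without set 2, and without set 8, 0 were called. Without the replicate block that pairs libraries by set, 0 were called.

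The difference between the glucose effects of the genotypes was not established for any mitochondrially encoded member. The interaction log2 fold changes (the hIAPP glucose change minus the mIAPP one) lay between -1.84 and -1.12 with a median of -1.27. edgeR called 0 of 13, where 3.12% of all genes were called (2.17% higher and 0.95% lower), although 12 had an unadjusted p below 0.05, and the lowest adjusted p was 0.154. DESeq2 also called 0. For 7 of the 13 the hIAPP change was the lower in all 8 sets. mt-Nd1, for example, had an interaction of -1.23 ± 0.49 (adjusted p = 0.172), with glucose changes of -1.90 ± 0.36 in hIAPP and -0.67 ± 0.35 in mIAPP islets.

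**Figure D2:**
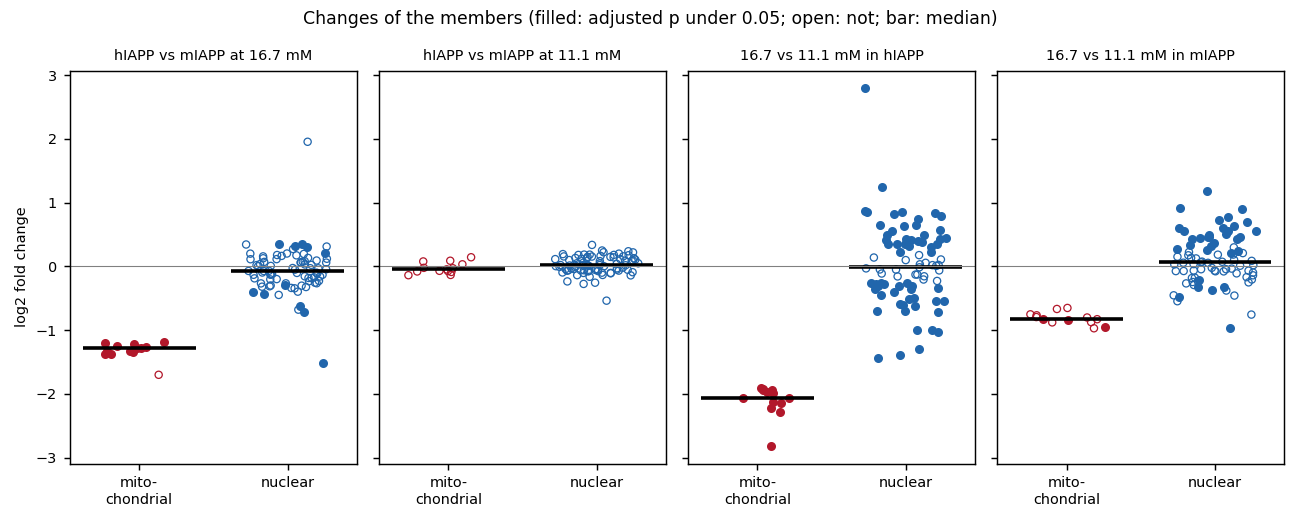
Log2 fold changes of the 13 mitochondrially and 81 nuclear encoded members in 4 comparisons, with filled points for an adjusted p below 0.05, open points for the rest and bars at the median. The mitochondrial medians are -1.28, -0.05, -2.07 and -0.82 from left to right, while nuclear points lie on both sides of 0 in every panel.

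Within the mitochondrially encoded transcripts, the shares of most members were narrow beside these shifts, apart from mt-Nd3, mt-Atp6 and mt-Co2. By the counts assigned to the members alone, mt-Atp6 ranged from 4.02 to 8.49% and mt-Co2 from 3.51 to 7.77% across libraries. Per transcript length, the counts assigned to mt-Co1 averaged 24435 CPM per kb, those of mt-Co3 19601, of mt-Atp6 16426, of mt-Cytb 15859 and of mt-Co2 14090 CPM per kb. With the counts of each chromosome 1 copy added, mt-Co1 stood at 26701, mt-Co2 at 25892 and mt-Co3 at 19642 CPM per kb, so the place of mt-Co2 in this order depended on the split. mt-Nd3 was the lowest in both, at 790.28 CPM per kb alone and 3623.1 CPM per kb with its copy. mt-Co1 made up a median of 29.0% of the mitochondrially encoded counts of hIAPP and 26.9% of those of mIAPP islets at 16.7 mM, and 26.6% of those of hIAPP and 26.03% of those of mIAPP islets at 11.1 mM. The mIAPP libraries of sets 3 and 5 at 11.1 mM stood apart: mt-Nd3 made up as little as 0.0127% of these counts there, and mt-Cytb and mt-Co3 took larger shares than in any other library.

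Several members have near-identical copies in the nuclear genome, so their single values are uncertain. A stretch of chromosome 1 (chr1:24611535-24616197, minus strand, GRCm38) holds unprocessed pseudogenes of 7 of the members. Gm28661 matches mt-Co2 over all 681 aligned bases, and 40.6 to 74.8% of the joint count of the pair was assigned to the copy, depending on the library. For mt-Atp6 and its identical copy Gm10925 the share was 0.892 to 40.6%, and for mt-Co3 and Gm28437 it was 0.0586 to 1.00%. Gm28438 differs from mt-Nd3 at 1 of 345 bases (T3C, counted from 1 at the 5′ end of the mt-Nd3 transcript, the member's base first) and took 72.1 to 96.3%. Gm29216 differs from part of mt-Co1 at 6 of 492 bases and took 5.63 to 13.1%. The copies of mt-Nd4 and mt-Nd4l were listed at 0 in every library. Of the 5 copies with counts, between genotypes at 16.7 mM 0 were called higher and 3 lower in hIAPP islets, and with glucose all 5 fell in hIAPP islets. With each of these copies added to its member, 13 members were called lower between genotypes at 16.7 mM, and 5 between glucose levels in mIAPP islets. Genes outside these 7 copies share sequence with members too, and their counts were not added. mt-Co1 shares 685 of its 1515 stretches of 31 bases with Gm13340, against 449 with Gm29216. mt-Nd2 shares 136 of 1008 with Gm13339, and mt-Nd5 shares 230 of 1794 with Gm4076.

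The sequences around these differences are shown because they decide which reads can tell a member from its copy, and capitals mark the bases that differ within each pair. All are 5′ to 3′ on the strand of the transcript, from GRCm38. The mt-Co1 pair differs by T1056A, C1057T, A1059G, A1060G, C1062A and A1066T, which all lie at the first bases of the copy, so most of the copy is identical to its member. The mt-Nd3 pair differs only at the third base, so almost no fragment can separate them.
mt-Nd3, chrM:9459-9491: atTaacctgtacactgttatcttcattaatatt
Gm28438, chr1:24613087-24613119: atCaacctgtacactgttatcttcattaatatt
mt-Co1, chrM:6381-6413: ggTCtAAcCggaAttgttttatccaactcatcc
Gm29216, chr1:24616165-24616197: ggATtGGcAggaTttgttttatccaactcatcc

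mt-Atp8 and mt-Atp6 overlap as well. Their reading frames share 43 bases, shown next with the start codon of mt-Atp6 and the stop codon of mt-Atp8 in capitals, and fragments inside them fit both members.
mt-Atp8 and mt-Atp6 overlap, chrM:7927-7969: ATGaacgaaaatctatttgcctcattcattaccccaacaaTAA

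**Figure D3:**
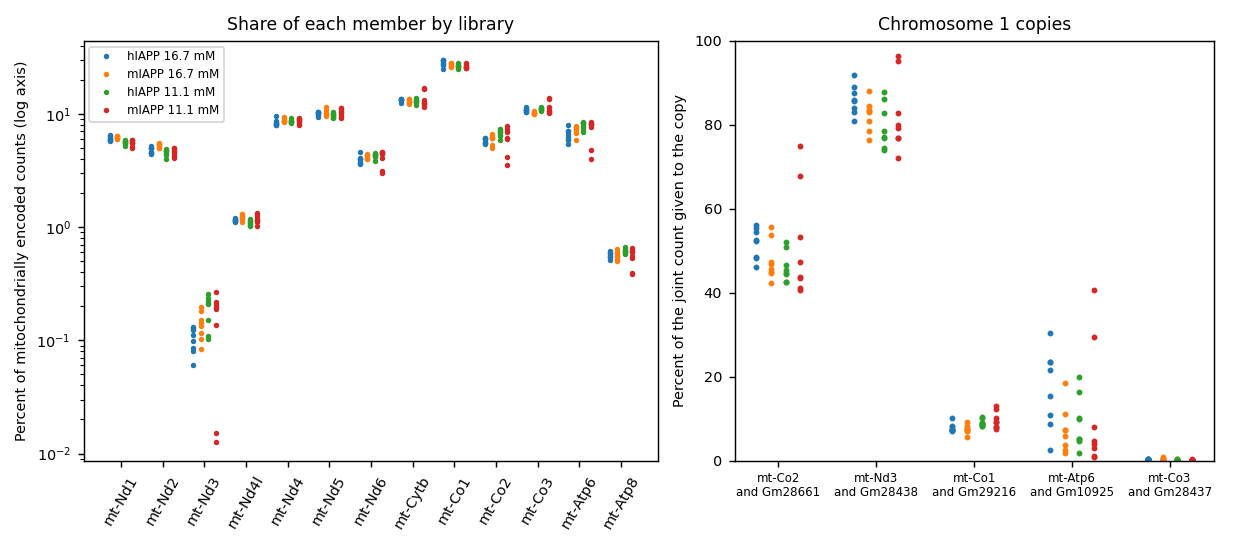
Left, percent of the mitochondrially encoded counts taken by each of the 13 members in each library (log axis); right, percent of the joint count of a member and its chromosome 1 copy that was assigned to the copy. By the counts assigned to the members alone, mt-Nd3 is the lowest in every library and takes as little as 0.0127% in an mIAPP library at 11.1 mM, and the copies of mt-Co2 and mt-Nd3 take 40.6 to 74.8% and 72.1 to 96.3%.

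The nuclear encoded members did not move as a block in any comparison. In hIAPP islets at 16.7 against 11.1 mM glucose, 31 of 81 were called higher and 29 lower, with 21 not called and a median log2 fold change of -0.01. The share called in either direction over all genes was 65.5%. Complex I had 11 higher and 17 lower of 38, complex II 3 and 0 of 4, complex III 4 and 2 of 8, complex IV 6 and 5 of 14, and complex V 7 and 5 of 17. In mIAPP islets the calls were mostly higher, with 27 higher (33.3%) and 6 lower (7.41%) and a median of 0.06. Over all genes 24.9% were called higher there and 22.7% lower, 47.5% in either direction. There complex I had 10 higher and 5 lower, complex II 1 and 0, complex III 3 and 0, complex IV 5 and 1, and complex V 8 and 0. The 2 glucose comparisons share no library but share their sets. Set side by side, 25 members were called higher in both genotypes and 6 lower in both, 23 were called lower in hIAPP islets and not called in mIAPP islets, and 0 were called in opposite directions. The same side-by-side count is not given for all genes, so these numbers describe the members without a background. The interaction was called for 1 of the 81 (Atp5l), so the 23 are not shown to respond differently.

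Ndufa1 (ENSMUSG00000016427, chrX:37187588-37191163, minus strand), a small accessory subunit of the complex I membrane arm that is needed for its assembly, had one of the clearest rises with glucose. It stood at 122.43, 133.81 and 163.2 CPM at 16.7 mM and at 49.751, 55.252 and 66.149 CPM at 11.1 mM in hIAPP islets, and at 81.505, 116.15 and 156.93 against 41.378, 47.743 and 76.052 CPM in mIAPP islets. The 16.7 and 11.1 mM ranges did not overlap in either genotype. Its log2 fold changes were 1.24 ± 0.11 for hIAPP (adjusted p = 1.41e-09) and 1.18 ± 0.12 for mIAPP islets (adjusted p = 1.02e-08). Ndufc2, a further accessory subunit, rose by 0.87 ± 0.08 and 0.92 ± 0.08, and the peripheral arm subunits Ndufa9 and Ndufs1 rose by 0.85 ± 0.10 and 0.83 ± 0.12 in hIAPP and by 0.60 ± 0.10 and 0.60 ± 0.12 in mIAPP islets. Ndufs7, which carries the last iron-sulfur cluster before ubiquinone, fell by 0.69 ± 0.12 in hIAPP and by 0.48 ± 0.12 in mIAPP islets. The accessory subunits Ndufv3, Ndufb7 and Ndufa10 also fell in both, by 0.60, 0.58 and 0.51 in hIAPP and by 0.37, 0.33 and 0.33 in mIAPP islets. Ndufa6, a matrix arm accessory subunit, fell by 0.30 ± 0.08 in hIAPP and by 0.21 ± 0.08 in mIAPP islets.

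Complex II has no mitochondrially encoded subunit. Its flavoprotein Sdha stood at 154.69, 176.46 and 182.04 CPM at 16.7 mM, against 108.22, 141.66 and 188.56 CPM at 11.1 mM in hIAPP islets, overlapping ranges with a log2 fold change of 0.30 ± 0.08 (adjusted p = 0.00264). The iron-sulfur subunit Sdhb rose by 0.23 ± 0.07 and the membrane anchor Sdhc by 0.43 ± 0.08 in the same islets, and Sdhd had 0.10 ± 0.10 (adjusted p = 0.371). In mIAPP islets Sdhc was the only one called, at 0.33 ± 0.08 (adjusted p = 0.00117). In complex III, the core subunit Uqcrc2 rose by 0.80 ± 0.12 in hIAPP and by 0.69 ± 0.12 in mIAPP islets, Uqcrb by 0.65 ± 0.09 and 0.90 ± 0.09, and the Rieske iron-sulfur protein Uqcrfs1 by 0.57 ± 0.07 and 0.56 ± 0.07. Uqcr10, a small accessory subunit, fell by 0.62 ± 0.14 in hIAPP islets (adjusted p = 0.000401) and had -0.25 ± 0.14 in mIAPP islets (adjusted p = 0.134). Uqcrq, the member of complex III with the highest mean level (212.02 CPM), was called in no comparison, at -0.01 ± 0.17 in hIAPP and 0.18 ± 0.17 in mIAPP islets.

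In complex V the catalytic subunit Atp5b stood at 491.76, 566.05 and 589.55 CPM at 16.7 mM, against 226.04, 306.86 and 389.04 CPM at 11.1 mM in hIAPP islets, ranges without overlap. Its log2 fold change was 0.85 ± 0.09 (adjusted p = 1.45e-08), against 0.56 ± 0.09 in mIAPP islets (adjusted p = 1.81e-05). Its partner in the catalytic head, Atp5a1, rose by 0.64 ± 0.10 in hIAPP and by 0.36 ± 0.09 in mIAPP islets, while the stalk subunit Atp5f1 by 0.75 ± 0.09 and 0.73 ± 0.09 likewise. Atp5e, the small epsilon subunit of the central stalk, went the other way, at 108.51, 132.86 and 191.99 CPM at 16.7 mM, against 118.25, 315.19 and 570.49 CPM at 11.1 mM in hIAPP islets (-0.999 ± 0.22, adjusted p = 0.000319). In mIAPP islets Atp5e had -0.46 ± 0.22 (adjusted p = 0.0819). Of the genes for the c-ring, whose mature proteins are the same, Atp5g1 and Atp5g3 rose by 0.36 ± 0.12 and 0.49 ± 0.08 in hIAPP and by 0.42 ± 0.12 and 0.56 ± 0.08 in mIAPP islets. Atp5g2 rose by 0.82 ± 0.18 in hIAPP islets (adjusted p = 0.00037) and had 0.22 ± 0.18 in mIAPP islets (adjusted p = 0.32).

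**Figure D4:**
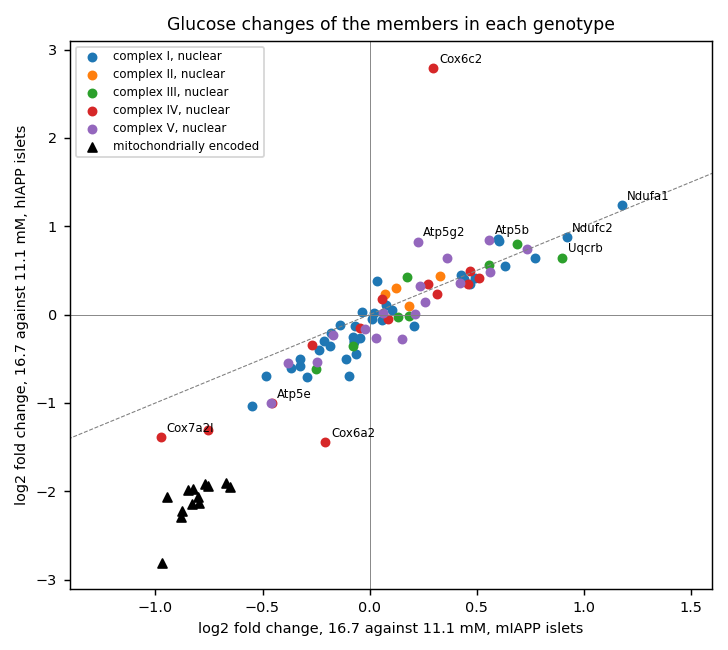
Log2 fold change at 16.7 against 11.1 mM glucose in hIAPP islets (vertical) and in mIAPP islets (horizontal) for each member, coloured by complex, with the dashed line at equal change. The mitochondrially encoded members (triangles) lie together between -2.82 and -1.90 on the vertical and between -0.97 and -0.65 on the horizontal axis, while nuclear members such as Ndufa1 lie along the line on both sides of 0.

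Complex IV held the largest nuclear decreases in hIAPP islets. Cox7a2l (ENSMUSG00000024248, chr17:83501918-83517330, minus strand) stood at 117.14, 126.75 and 159.93 CPM at 16.7 mM, against 215.45, 371.86 and 471.4 CPM at 11.1 mM in hIAPP islets. In mIAPP islets it stood at 128.27, 156.1 and 203.47 CPM, against 201.17, 313.18 and 493.74 CPM. The hIAPP ranges did not overlap, and the mIAPP ranges overlapped only at their edge. Its log2 fold changes were -1.38 ± 0.11 (adjusted p = 4.86e-11) and -0.97 ± 0.10 (adjusted p = 4.42e-08), and it was lower at 16.7 mM in all 8 sets of both genotypes. Cox8a, the ubiquitous isoform of subunit VIII, fell by 0.34 ± 0.12 in hIAPP islets (adjusted p = 0.0122) and had -0.27 ± 0.12 in mIAPP islets (adjusted p = 0.0624).

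Cox6a2 (ENSMUSG00000030785, chr7:128205435-128206387, minus strand), the heart and skeletal muscle isoform of subunit VIa, was lower in hIAPP islets at 16.7 mM than in any other group. It stood at 17.021, 64.956 and 112.5 CPM there, against 65.237, 150.47 and 448.79 CPM in mIAPP islets at 16.7 mM, 89.479, 145.79 and 220.33 CPM in hIAPP islets at 11.1 mM and 89.459, 163.06 and 308.7 CPM in mIAPP islets at 11.1 mM. The ranges overlapped, but hIAPP was below mIAPP in all 8 sets at 16.7 mM, with a log2 fold change of -1.51 ± 0.26 (adjusted p = 0.000254). In hIAPP islets it fell by 1.44 ± 0.26 with glucose (adjusted p = 4.73e-05, lower in 8 of 8 sets), and in mIAPP islets it had -0.21 ± 0.26 (adjusted p = 0.528). The interaction was -1.24 ± 0.36 (adjusted p = 0.0608), just short of the threshold, with the hIAPP change the lower in 8 of 8 sets. Markers of muscle summed to medians of only 3.50, 4.43, 6.97 and 7.91 CPM in hIAPP and mIAPP islets at 16.7 mM and in hIAPP and mIAPP islets at 11.1 mM, and 0 of 3 tested changed between genotypes at 16.7 mM. In hIAPP islets 2 of the 3, Acta1 and Ckm, fell with glucose, and their part in the Cox6a2 result was not tested.

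The ubiquitous counterpart Cox6a1 was not called in any comparison, at medians of 124.85 and 121.08 CPM in hIAPP and mIAPP islets at 16.7 mM and of 115.2 and 107.07 CPM in hIAPP and mIAPP islets at 11.1 mM. The muscle isoform Cox7a1 was near the detection limit, with medians of 0.299 to 0.750 CPM, and fell by 1.00 ± 0.34 with glucose in hIAPP islets (adjusted p = 0.0133). Its ubiquitous counterpart Cox7a2 rose by 0.23 ± 0.08 in hIAPP and by 0.32 ± 0.08 in mIAPP islets. The testis isoform Cox6b2, the lowest member of complex IV, fell by 1.30 ± 0.48 in hIAPP islets at levels below 1 CPM (adjusted p = 0.019). Cox6c2 had the largest log2 fold change of the nuclear members, 2.79 ± 0.91 in hIAPP islets (adjusted p = 0.0103), between 0.2697, 4.6777 and 5.851 CPM at 16.7 mM and 0, 0.559 and 2.86 CPM at 11.1 mM. Cox6c2 is one of the annotated pseudogenes that share sequence with a member, its call was lost without the replicate block, and its fold change was -1.54 with the mitochondrial share of counts in the fit. Ndufa4l2, a hypoxia-inducible paralog of Ndufa4, fell by 1.03 ± 0.25 in hIAPP islets (adjusted p = 0.000707), at medians of 2.42 and 5.24 CPM, while Ndufa4 rose by 0.64 ± 0.07 in hIAPP and by 0.77 ± 0.08 in mIAPP islets.

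Between genotypes at 16.7 mM, 5 nuclear encoded members were called higher and 6 lower in hIAPP islets, 11 of 81, with a median log2 fold change of -0.07. Over all genes 20.5% were called. The 5 were the complex III core subunit Uqcrc2 (0.35 ± 0.11), the subunits Atp5a1 (0.32 ± 0.09), Atp5b (0.31 ± 0.09) and Atp5c1 (0.21 ± 0.06) of the soluble part of ATP synthase, and the complex I accessory subunit Ndufa9 (0.35 ± 0.10). Each of the 5 was higher in the hIAPP library in all 8 sets, with adjusted p between 0.0169 and 0.0308. The 6 were Cox6a2, Ndufa4l2 (-0.72 ± 0.25), Atp5e (-0.62 ± 0.22), Uqcr10 (-0.44 ± 0.14), Ndufs6 (-0.40 ± 0.14), a zinc-binding subunit of complex I, and Atp5l (-0.30 ± 0.08), with adjusted p between 0.000254 and 0.0471.

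Atp5b stood at 491.76, 566.05 and 589.55 CPM in hIAPP and at 281.9, 451.53 and 548.5 CPM in mIAPP islets at 16.7 mM, ranges that overlapped through the mIAPP libraries of sets 4 and 5. Uqcr10 stood at 47.024, 57.065 and 75.208 CPM in hIAPP and at 53.687, 68.783 and 156.31 CPM in mIAPP islets, lower in 8 of 8 sets. Without the mIAPP library of set 7, 3 of the 81 were called, and leaving out single sets gave between 1 and 15. Without set 1 the count was 1, without set 2 it was 5, without set 6 it was 4 and without set 7 it was 2. Cox6a2 was the only one called in each of these fits. Without the replicate block that pairs libraries by set, the count was 2.

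At 11.1 mM glucose edgeR called 0 of the 81 nuclear encoded members between genotypes, and DESeq2 also called 0, while 10 had an unadjusted p below 0.05. The lowest adjusted p was 0.37, for Uqcrb, a ubiquinone-binding subunit of complex III, at 0.34 ± 0.09 and higher in the hIAPP library in 8 of 8 sets. Its levels were 42.685, 52.314 and 55.343 CPM in hIAPP and 27.488, 40.092 and 53.325 CPM in mIAPP islets.

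The genotype by glucose interaction was called for 3.12% of all genes tested, and for 1 of 81 nuclear members, Atp5l (ENSMUSG00000038717, chr9:44912557-44920742, minus strand), the g subunit of the membrane part of ATP synthase, which takes part in joining synthase dimers. It stood at 119.66, 127.3 and 142.82 CPM in hIAPP and 134.95, 154.39 and 239.51 CPM in mIAPP islets at 16.7 mM, and at 118.28, 159.1 and 198.08 CPM in hIAPP and 120.5, 138.99 and 230.4 CPM in mIAPP islets at 11.1 mM. All 4 ranges overlapped. Its glucose change was -0.27 ± 0.08 in hIAPP (adjusted p = 0.00458), against 0.15 ± 0.08 in mIAPP islets (adjusted p = 0.124), an interaction of -0.42 ± 0.11 (adjusted p = 0.0368) with the hIAPP change the lower in 8 of 8 sets. The call was lost in 14 of 19 alternatives, among them the fit without the replicate block.

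Adding the log2 of the mitochondrial share of counts to the fit changed the number of calls over all genes as well as among the nuclear members. Over all genes that fit called 4.58% between genotypes at 16.7 mM and 19.4% between glucose levels in hIAPP islets, against 20.5% and 65.5% without the share. Of the 81 nuclear members it called 0 and 16 (19.8%). In mIAPP islets it called 35.3% of all genes and 33 nuclear members (40.7%). Of the original calls in hIAPP islets, 14 of the 31 higher members and 1 of the 29 lower members (Cox7a2l) were still called. In mIAPP islets 26 of 27 higher members and 2 of 6 lower members (Cox7a2l and Ndufs7) were still called. The share itself differed between the groups, so this fit cannot tell apart the share and the treatment. Scaling mattered too: with total counts in place of TMM, which moved the median of all genes to 0.18 between genotypes at 16.7 mM and to 0.15 between glucose levels in hIAPP islets, the nuclear split was 12 higher and 1 lower, and 38 higher and 18 lower. Relative to those medians of all genes, the median nuclear member stood at -0.07 and at -0.00317.

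Markers of islet cell types were called as well, in comparisons that called 11.2% of all genes lower between genotypes at 16.7 mM, 33.3% lower with glucose in hIAPP islets and 22.7% lower in mIAPP islets. Between genotypes at 16.7 mM, 6 of 8 beta cell, 4 of 6 endothelial and 1 of 6 fibroblast markers were lower in hIAPP islets. Of the macrophage markers 1 of 6 was higher, where 9.27% of all genes were. The beta cell list includes Iapp, the replaced gene, so a lower call of Iapp between genotypes does not bear on beta cells. At 16.7 against 11.1 mM in hIAPP islets, 7 of 8 beta cell and 6 of 6 endothelial markers were lower. The same held for 5 of 6 macrophage and 5 of 6 fibroblast markers. In mIAPP islets 3, 4, 6 and 2 of them were lower, in the same order. With glucose 1 beta cell marker was higher in each genotype, and 0 endothelial, macrophage or fibroblast markers were. Of all genes 32.2% and 24.9% were called higher in hIAPP and mIAPP islets. Markers of ductal cells had 1 of 5 higher between genotypes at 16.7 mM and, with glucose, 2 higher and 2 lower in hIAPP and 1 and 1 in mIAPP islets. Those of the other endocrine cells had 0 of 8 called between genotypes at 16.7 mM and, with glucose, 2 higher and 2 lower in hIAPP and 1 and 2 in mIAPP islets. Endothelial markers summed to medians of 31.5, 52.0, 70.3 and 74.5 CPM in hIAPP and mIAPP islets at 16.7 mM and in hIAPP and mIAPP islets at 11.1 mM, and macrophage markers to 113.7, 125.2, 294.1 and 240.5 CPM. Ductal markers summed to medians of 921.8 and 629.4 CPM in hIAPP and mIAPP islets at 16.7 mM, and of 367.5 and 390.04 CPM at 11.1 mM. Acinar markers summed to between 2.03 and 211 CPM over all libraries, and 0 of 7 were called. The part of these shifts in the results on the members was not tested.

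Among the nuclear members, glucose changes went with base composition. Members called higher in hIAPP islets had a median GC content of 48.5%, those called lower 53.8% and those not called 53.9%. In mIAPP islets the medians were 48.4%, 54.8% and 53.8%. Median transcript lengths were 1142, 680 and 861 bases in hIAPP islets and 1001, 1030 and 735 bases in mIAPP islets, so length did not follow the direction of the calls in both. Across the 81 members the log2 fold change correlated with GC content at a Pearson r of -0.39 in hIAPP and -0.54 in mIAPP islets, while across all genes with a known transcript r was -0.07 and -0.26. Between genotypes r across the members was -0.29 at 16.7 mM and -0.48 at 11.1 mM, against -0.01 and -0.32 across all genes. Genes are not independent replicates and share their libraries, so these values are a description.

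Promoters were available for 64 of the 81 nuclear members (RefSeq, GRCm38.p6, 250 bases before to 50 after the gene start). NRF1 and the ETS factor GABP are regulators known from the promoters of respiratory genes. The NRF1 motif GCGCANGCG, searched like all others on both strands, was in 19 of the 64 (29.7%), against 6.472% of 27025 promoters of the same length. The ETS motif CCGGAAG was in 15 (23.4%), against 9.121%, and the YY1 motif AAGATGGCG in 6 (9.38%), against 1.495%. The motif TCAAGGTCA of the estrogen-related receptors was in 2 (3.12%), against 0.407%, and TATAAA in 5 (7.81%), against 14.16%. No match of one motif overlapped a match of another in these 64 promoters. Among all genes tested, 32.2% were called higher and 33.3% lower with glucose in hIAPP islets, and 24.9% and 22.7% in mIAPP islets. Of the 19 members with the NRF1 motif 4 were called higher and 10 lower with glucose in hIAPP islets, and 1 and 1 in mIAPP islets. Of the 45 without it 18 were called higher with glucose in hIAPP islets and 16 lower, and 18 and 5 in mIAPP islets. Of the 15 with the ETS motif 3 were called higher with glucose in hIAPP islets and 8 lower, and 2 and 1 in mIAPP islets. Of the 49 without it 19 and 18 were, and 17 and 5. These counts are a description of few members, with no test of a difference between motif classes.

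A pair of promoters is shown, because Sdha has 3 NRF1 motifs and belongs to the complex without mitochondrial subunits, and Atp5l has 2 ETS motifs, 1 NRF1 motif and the called interaction. Capitals mark the NRF1 and ETS motifs on either strand, and both sequences are 5′ to 3′ on the strand of the gene. A match is a run of letters and was not tested for binding.
Sdha promoter, chr13:74350191-74350490, minus strand: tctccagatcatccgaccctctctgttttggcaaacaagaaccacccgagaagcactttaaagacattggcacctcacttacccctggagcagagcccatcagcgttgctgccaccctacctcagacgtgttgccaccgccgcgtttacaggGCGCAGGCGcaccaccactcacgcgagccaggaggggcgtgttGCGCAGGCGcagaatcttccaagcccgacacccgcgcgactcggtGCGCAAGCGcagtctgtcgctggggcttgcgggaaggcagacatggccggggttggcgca
Atp5l promoter, chr9:44920693-44920992, minus strand: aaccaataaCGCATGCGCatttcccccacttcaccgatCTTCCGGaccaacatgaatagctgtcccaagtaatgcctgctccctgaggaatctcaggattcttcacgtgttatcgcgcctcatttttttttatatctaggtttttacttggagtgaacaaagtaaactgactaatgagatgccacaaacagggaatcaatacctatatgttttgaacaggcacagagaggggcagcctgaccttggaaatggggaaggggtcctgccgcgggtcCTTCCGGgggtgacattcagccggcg

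Genes that work beside the chain were read from lists, given as higher and lower calls of those tested. Over all genes 9.27% were called higher and 11.2% lower between genotypes at 16.7 mM, 32.2% and 33.3% with glucose in hIAPP islets, and 24.9% and 22.7% in mIAPP islets, and the counts of every list are read beside these shares. The list of mitochondrial DNA upkeep and transcription had 0 higher and 3 lower of 20 between genotypes at 16.7 mM, 4 and 10 with glucose in hIAPP islets, and 4 and 6 in mIAPP islets, with medians of -0.17, -0.23 and -0.15. Twnk, the helicase that unwinds mitochondrial DNA, stood at 10.1, 11.9 and 15.1 CPM in hIAPP and at 13.9, 14.96 and 26.8 CPM in mIAPP islets at 16.7 mM. It fell by 0.44 ± 0.09 between genotypes at 16.7 mM (adjusted p = 0.0018, lower in 8 of 8 sets), and with glucose by 0.75 ± 0.09 in hIAPP and by 0.53 ± 0.09 in mIAPP islets. Polg2, the accessory subunit of the mitochondrial DNA polymerase, fell by 0.36 ± 0.11, 0.71 ± 0.11 and 0.30 ± 0.11 in the same comparisons. Polrmt, the mitochondrial RNA polymerase, was called in no comparison, at -0.06 ± 0.10 between genotypes at 16.7 mM, and -0.05 ± 0.10 in hIAPP and -0.17 ± 0.10 in mIAPP islets with glucose. Tfam, which packages mitochondrial DNA and starts its transcription, had 0.13 ± 0.08 in hIAPP islets (adjusted p = 0.15) and rose by 0.22 ± 0.08 in mIAPP islets (adjusted p = 0.033).

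The list of mitochondrial RNA processing and decay had 1 higher and 2 lower of 23 between genotypes at 16.7 mM, 9 and 6 with glucose in hIAPP islets, and 7 and 5 in mIAPP islets. Rexo2, which degrades short RNA fragments in mitochondria, rose by 1.03 ± 0.07 and 1.05 ± 0.07 with glucose in hIAPP and mIAPP islets. Lrpprc, which stabilises mitochondrial mRNAs, rose by 0.53 ± 0.15 in hIAPP islets (adjusted p = 0.0036) and had 0.36 ± 0.15 in mIAPP islets (adjusted p = 0.053). Of the biogenesis regulators 3 were higher and 1 lower of 12 between genotypes at 16.7 mM, 6 and 2 with glucose in hIAPP islets, and 4 and 1 in mIAPP islets. Nrf1 fell by 0.76 ± 0.09 and 0.64 ± 0.09, and Gabpa, the DNA-binding subunit of GABP, rose by 0.92 ± 0.18 and 0.71 ± 0.18. The coactivator Ppargc1a rose by 0.53 ± 0.21 and 0.52 ± 0.21 at levels near 1 CPM, calls that held in 14 of 18 alternatives in hIAPP and in 6 of 18 in mIAPP islets. Its relative Pprc1 rose by 0.73 ± 0.08 in hIAPP and by 0.35 ± 0.08 in mIAPP islets, with an interaction of 0.38 ± 0.11 (adjusted p = 0.049). Ppargc1b, on the same list, went the other way. Its log2 fold change with glucose in hIAPP islets was -0.93, a call that held in 18 of 18 alternatives. Between genotypes at 16.7 mM it had -0.66, called lower, and this call held in 15 of 18.

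The TCA cycle list, which holds no Sdh gene, had 7 higher and 0 lower of 18 in hIAPP against mIAPP islets at 16.7 mM, 13 and 2 with glucose in hIAPP islets, and 11 and 2 in mIAPP islets, with medians of 0.19, 0.38 and 0.36. Of all genes 9.27%, 32.2% and 24.9% were called higher in these comparisons. Fh1, the fumarase that acts on the product of complex II, stood at 327.1, 346.2 and 447.6 CPM in hIAPP and at 146, 209.1 and 266.8 CPM in mIAPP islets at 16.7 mM, ranges without overlap. It was higher by 0.82 ± 0.12 (adjusted p = 1.8e-05, 8 of 8 sets). With glucose it rose by 1.50 ± 0.12 in hIAPP and by 0.79 ± 0.12 in mIAPP islets, an interaction of 0.71 ± 0.16 (adjusted p = 0.014). The citrate synthase gene Cs rose by 0.71 ± 0.09 in hIAPP islets and was 0.29 ± 0.09 above mIAPP islets in hIAPP islets at 16.7 mM.

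Assembly factors of complex I had 0 higher and 1 lower (Ndufaf8, -0.44 ± 0.14) of 15 between genotypes at 16.7 mM, 2 and 5 with glucose in hIAPP islets, and 2 and 2 in mIAPP islets. Those of complexes II to V had 1 and 2 of 34, 10 and 14, and 6 and 6, with Uqcc2, a complex III assembly factor, falling by 1.26 ± 0.18 in hIAPP and by 0.89 ± 0.18 in mIAPP islets. Genes of the mitochondrial membranes and protein import had 0 and 1 of 23, 12 and 6, and 11 and 4, and genes of the mitochondrial protein stress response had 2 and 1 of 15, 7 and 5, and 5 and 5. The list of subunits passed over by the symbol patterns had 0 higher and 1 lower of 8, 2 and 3, and 3 and 0. Cycs, the cytochrome c that carries electrons from complex III to IV, rose by 1.21 ± 0.11 in hIAPP and by 1.13 ± 0.11 in mIAPP islets. Cox4i1, the ubiquitous isoform of complex IV subunit IV, fell by 0.32 ± 0.11 in hIAPP islets with glucose (adjusted p = 0.011). Its hypoxia-responsive isoform Cox4i2, at medians of 0.266 to 0.901 CPM, fell by 1.12 ± 0.28 between genotypes at 16.7 mM (adjusted p = 0.0067) and by 1.39 ± 0.28 with glucose in hIAPP islets. At 11.1 mM edgeR called 0 genes of these lists between genotypes.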

How the data were processed

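RNA of 32 islet libraries was poly(A)-selected and made into directional libraries, per the labels' protocols. The deposited table holds 1 estimated count per gene and library, made by the authors with kallisto 0.45.0 after bcl2fastq 1.8.4 on GRCm38, per the submitters' processing notes; the transcript set, strand setting and rounding are not given in the sources used here. kallisto shares reads among matching transcripts, so counts of near-identical copies are split by a model. Every row names a gene, and 0 columns lack a sample. The deposited estimated counts are whole numbers already.

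Here edgeR 4.0.16 (with limma 3.58.1, R 4.3.3) was fitted to the 16428 genes kept by filterByExpr, with TMM scaling, a term for each group and 1 for each set, and robust quasi-likelihood tests with 21 residual degrees of freedom. The 5 contrasts were the genotype difference at each glucose level, the glucose difference in each genotype, and their interaction. P-values were adjusted by Benjamini-Hochberg over all genes, with a threshold of 0.05, and each ± beside a log2 fold change is a standard error. Alternatives were fits without the replicate block, other scalings and filters, DESeq2 1.42.0, only the groups compared, each set left out, the mIAPP library of set 7 at 16.7 mM left out, and the mitochondrial share as a covariate; fits with the chromosome 1 copies added to their members, or with repeated entries summed, were chosen after seeing the data. The fitting script was tested on simulated counts. Set numbers pair the libraries because each set of experiments held all 4 groups, per the labels' protocols; deviations of same-set libraries correlated at mean r of 0.168 to 0.362 between groups, and those of other sets at -0.0505 to -0.0238.

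Members and lists were chosen with earlier results of these data known. Named were all mitochondrially encoded members, up to 6 nuclear members per direction and comparison with the largest called changes, the interchangeable isoforms, the highest and lowest member of each complex, up to 4 genes of each list by p, and Polrmt, Tfam, Lrpprc, Ppargc1a and Cox4i1. Sdhc, Sdhd and Uqcrfs1, outside this rule, were named after their values were seen, to fill out their complexes. One gene that the rule names is not reported here. Gene positions and transcripts are from GENCODE on GRCm38, and promoters from RefSeq.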

Additional observations from a re-analysis of the deposited data

Results flagged for a closer look

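In groups of 8 libraries, a single library lay far from the others for the members listed here. Chance marks about 1 in 20 groups in this way, and the number of groups searched is not given here. Whether the flags exceed that rate was not tested. The mIAPP library of set 7 at 16.7 mM accounts for most of them. Its summed mitochondrially encoded level was 605410 CPM, against 142880 CPM in the next library of its group. All 13 mitochondrially encoded members were highest in it: mt-Nd1 at 38097, mt-Nd2 at 31736, mt-Nd3 at 1196.5, mt-Nd4 at 57062, mt-Nd4l at 7142.7, mt-Nd5 at 60377 and mt-Nd6 at 26152 CPM. mt-Cytb stood at 74147, mt-Co1 at 158710, mt-Co2 at 39860, mt-Co3 at 60645, mt-Atp6 at 46618 and mt-Atp8 at 3665.5 CPM. Among its nuclear encoded members the high ones were Atp5e at 864.13, Atp5g1 at 316.15, Atp5l at 239.51, Cox6a2 at 448.79, Cox7a1 at 0.8485, Ndufa10 at 117.28, Ndufb7 at 115.67, Ndufs6 at 130.32, Ndufv3 at 256.04, Uqcr10 at 156.31 and Uqcrq at 631.09 CPM. The low ones were the ATP synthase genes Atp5f1 at 98.922 and Atp5g3 at 99.95 CPM.

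Set 7 also stood apart among the mIAPP libraries at 11.1 mM, with Atp5l at 230.4, Ndufc2 at 77.438 and Uqcrq at 443.71 CPM as highest values. In that group set 4 was highest for Atp5f1 at 117.03 and Ndufs1 at 62.505 CPM. In hIAPP islets at 16.7 mM, set 8 was lowest for Atp5f1 at 145.3 and Cox6c2 at 0.2697 CPM, and set 4 was highest for Ndufa1 at 163.2 and Ndufc2 at 137.77 CPM. Atp5s was highest in set 3 in mIAPP islets at 16.7 mM, at 12.243 CPM, and in hIAPP islets at 11.1 mM, at 12.502 CPM. Sdhb was highest in set 6 in hIAPP islets at 11.1 mM, at 66.2 CPM.

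The glucose change differed between the genotypes by a test of the difference itself in 3 named genes. The interaction was -0.42 on the log2 scale for Atp5l, 0.71 for Fh1 and 0.38 for Pprc1, with the hIAPP change lower in 8 of 8 sets for Atp5l and higher in 8 of 8 sets for Fh1 and Pprc1. The Pprc1 call was kept in 7 of 18 alternatives, and the Fh1 call was lost only without the replicate block.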

How the results depend on the processing

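The 13 mitochondrially encoded calls between glucose levels in hIAPP islets, and the counts of 0 at 11.1 mM and in the interaction, did not change in any alternative. Between genotypes at 16.7 mM, leaving out a set gave 1 to 13 mitochondrially encoded members (12 with all sets) and 1 to 15 nuclear encoded members (11 with all sets). Fits without the replicate block, which drop the pairing by set, called 2 nuclear members there and 0 mitochondrially encoded members between glucose levels in mIAPP islets. That last count, 3 as reported, was also 6 with total counts in place of TMM, 1 with DESeq2, 0 without the filter on low counts, 7 with a mean of at least 5 CPM, 6 with only the groups compared, 5 with copies added, and 0 to 12 leaving out a set. Nuclear interaction calls, 1 as reported, were 0 without the replicate block, with size factors of the RLE kind, with scaling without mitochondrial genes, with total counts and without the filter, 2 with DESeq2 and with a mean of at least 5 CPM, and 0 to 1 leaving out a set.

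With the mitochondrial share as a covariate, 0 nuclear members were called between genotypes at 16.7 mM, 0 in the interaction, and 16 in hIAPP islets between glucose levels (60 as reported; 51 to 62 leaving out a set). Over all genes that fit called 4.58% in place of 20.5%, 1.58% in place of 3.12%, and 19.4% in place of 65.5%. That fit reversed Atp5e between genotypes at 16.7 mM (0.00323) and, between glucose levels in hIAPP islets, Atp5e (0.0961), Cox6c2 (-1.54), Ndufa10 (0.12), Ndufs6 (0.19), Sdha (-0.10) and Sdhb (-0.00782), and the cause was not tested. In mIAPP islets nuclear calls were 33, and 27 to 39 leaving out a set. Of 119 calls and values of 47 named members, 52 kept their side of the threshold in every alternative, and 53 lost a call in at least 1. Among list genes 67 of 100 kept theirs and 33 lost a call in at least 1. Depth limits Cox6b2, Cox6c2, Cox7a1 and Cox4i2, which lie near or below 1 CPM in some groups, and animals per set are not stated.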
